A study of Mus musculus with 6 samples.

Results

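Disease-associated microglia are a state that the resident macrophages of the brain enter around plaques, dying cells and damaged myelin, and it is known best from mouse models of Alzheimer's disease. Microglia leave their resting state, raise genes for phagocytosis, lipid transport and lysosomal digestion, and lower resting-state receptors such as P2ry12. The later step of this change needs TREM2, a lipid-sensing receptor that signals through its partner TYROBP. The 10 genes followed here, Trem2, Tyrobp, Apoe, Cst7, Lpl, Axl, Cd68, Ctsb, Ctsd and Spp1, are commonly read as its signature. They were taken by their Ensembl identifiers from the 21006 genes of the deposited FPKM (fragments counted per kilobase of exon and divided by the depth of the sample), whatever their values, and all 10 were present.

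The question was whether these genes differ in the prefrontal cortex when aged mice have postoperative neurocognitive disorder (PND), a decline of memory and attention after surgery. Both groups were wild type male C57BL/6 mice of 18 months by the age label, although the sample titles carry a 17M tag. The PND group (n = 3) underwent exploratory laparotomy, an opening of the abdomen to inspect its organs, under isoflurane anesthesia, with lidocaine cream and povidone iodine on the wound afterwards. The CON group (n = 3) had neither anesthesia nor operation, so the parts played by anesthetic, surgery and wound care cannot be told apart. Each sample came from 1 animal, and all animals shared the open field, fear conditioning and Barnes maze tests and a final deep isoflurane anesthesia with saline perfusion before the cortex was dissected. Samples are named here by group and replicate, from PND1 to CON3.

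The libraries were rRNA-depleted, and the values recovered as whole fragments gave effective depths of 7193226 to 9388019 fragments per sample. All 10 neuron markers were tested and summed to 977 to 1074 FPKM per sample. These markers are general to neurons, so the prefrontal cortex label itself was not checked. All 20 markers of homeostatic microglia, the resting state, were also detected, with 54.0 to 74.2 FPKM in sum. Whole cortex was measured, so fewer microglia and less RNA per microglia cannot be told apart. The median shift of a sample over all genes was at most 0.043 on the log2 scale.

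After correction over all genes tested, no difference between PND and CON was called for any of these genes, and in every one of them the groups overlapped in range. PND was compared with CON in limma on log2(FPKM + 0.1), and p-values were adjusted over the 18185 genes that averaged 0.1 FPKM or more. Cst7 lay below that level, and 9 of the 10 genes were tested. By limma 0 of the 9 had an adjusted p below 0.05, against 0.011% of all genes tested. The study's cut-off, a fold change above 2 with an unadjusted p below 0.05, was passed by 0 of the 9, against 1.33% of all genes. An unadjusted p below 0.05 was found for 1 of the 9, Ctsb, against 3.13% of all genes. Ctsb was higher in PND, as were 1.73% of all genes at this p, and 0 of the 9 were lower, against 1.4% of all genes. When limma's voom was run on the recovered fragments instead, these counts were 0, 0 and 1.

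Of the 9 genes, 6 had a higher mean and 3 a lower mean in PND, and the median log2 fold change was 0.12, against 0.012 over all genes tested. The median deviation of the 9 genes had an SD of 0.265 between samples of a group, and their median log2 fold change turned to -0.068 without PND3 and to -0.084 without CON1. In each of the 10 genes the 3 PND samples and the 3 CON samples overlapped in range. Groups without overlap were found for 7.66% of all genes tested. The plot of levels by sample shows this overlap gene by gene.

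**Figure D1:**
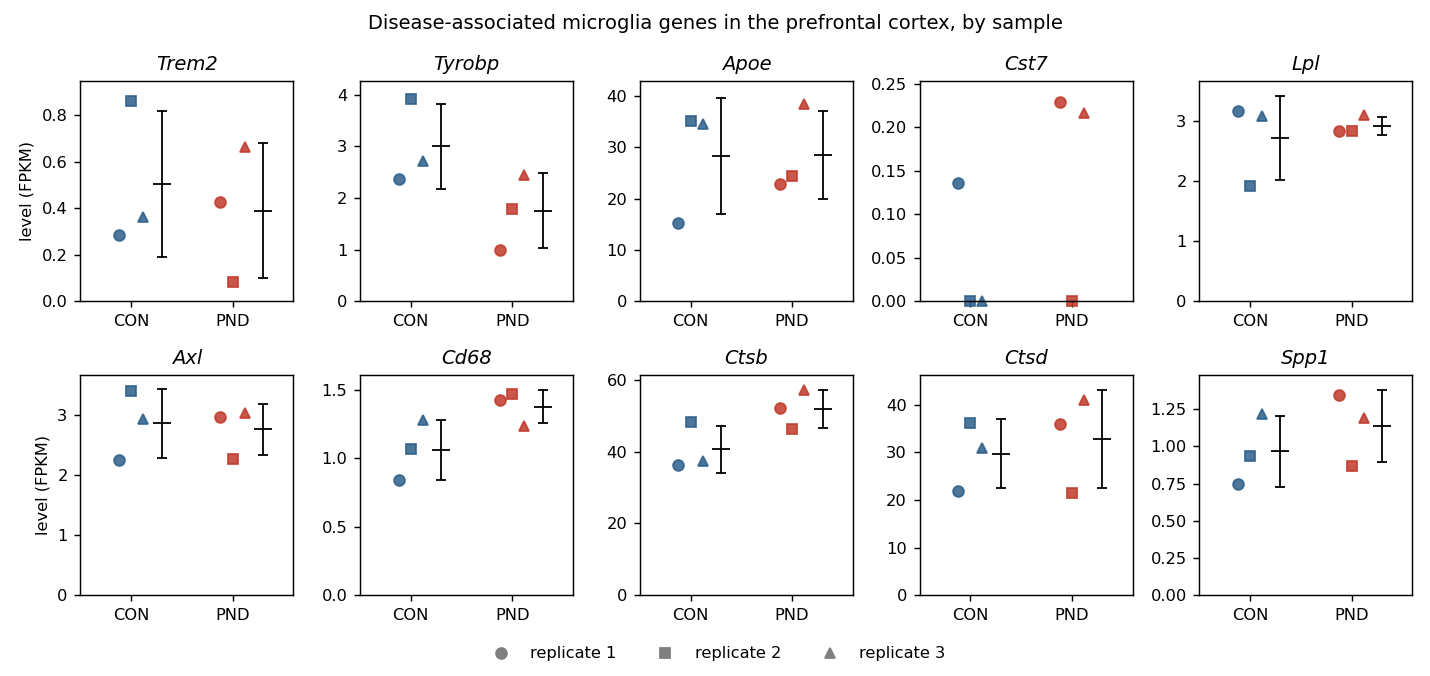
Level in FPKM (y axis, from 0) of each of the 10 genes in the 3 CON and 3 PND samples. Points are single animals, the marker shape gives the replicate number, and the bars beside them are mean ± SD, left out for Cst7 because no sample held more than 2 fragments. In every panel the PND and CON points overlap in range, and Trem2 runs from 0.0827 FPKM in PND2 to 0.862 FPKM in CON2.

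Trem2 and Tyrobp form the receptor that senses lipids and debris on the microglial surface. Trem2 (chr17:48346401-48354147, plus strand, GRCm38) binds lipids, lipoproteins and apolipoprotein E. Tyrobp (chr7:30413760-30417585, plus strand) encodes the adaptor DAP12, which has almost no extracellular part and carries the signal inward through an immunoreceptor tyrosine-based activation motif (ITAM). Syk kinase docks on the tyrosines of this motif once they are phosphorylated. The motif is shown because it is the step through which Trem2 acts on the kinases listed further on, and Tyrobp had the lowest log2 fold change of the 10 genes. A search of the translated 114 coding codons for tyrosine, any 2 residues, leucine or isoleucine, then 6 to 8 residues and the same again, gave 1 match. It covers codons 92 to 106 and 45 spliced bases, read from the GENCODE transcript of 564 bases, and begins in exon 4 and ends in exon 5 of 5 (chr7:30415670-30417382, plus strand). Capitals mark the codons of the paired tyrosines and leucines.
Tyrobp ITAM: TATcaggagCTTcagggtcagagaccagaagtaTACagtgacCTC

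The Tyrobp level was 1.002, 1.79 and 2.46 FPKM in PND1 to PND3 and 2.37, 3.92 and 2.71 FPKM in CON1 to CON3. Of the PND samples, PND3 alone reached above the lowest CON sample, CON1. Tyrobp thus had a log2 fold change of -0.79 (SE 0.35, 95% confidence interval -1.60 to 0.015), for which limma gave unadjusted p = 0.0533 and adjusted p = 0.9999. These levels rest on 26 fragments in the PND group and 39 in the CON group. The exact Poisson 95% interval of a single sample was wide at this depth, from 0.325 to 2.34 FPKM in PND1 and from 2.32 to 6.19 FPKM in CON2, and such intervals cover counting error only. The call of Tyrobp depended on the processing. Its unadjusted p fell below 0.05 with correction for GC content (log2 fold change -0.86, unadjusted p = 0.0230, where 4.36% of all genes pass) and with quantile normalization (-0.83, unadjusted p = 0.0400). With voom it was 0.115, where 2.83% of all genes pass. Without PND3 Tyrobp stood at -1.07 with an unadjusted p = 0.0210 in limma, past the study's cut-off.

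Trem2 was scarce and uneven between samples. Its level was 0.425, 0.0827 and 0.661 FPKM in PND1 to PND3, and 0.283, 0.862 and 0.364 FPKM in CON1 to CON3. The lowest and the highest sample, PND2 and CON2, differed 10.4-fold, the widest range of the 9 genes tested, and the other 4 samples lay between them, with CON1 and CON3 below PND1 and PND3. Counting error did not cover this range. The 4 fragments of PND2 give a Poisson 95% interval of 0.0225 to 0.212 FPKM, and the 43 fragments of CON2 one of 0.624 to 1.16 FPKM. Its log2 fold change was -0.41 (SE 0.61, 95% confidence interval -1.85 to 1.03, unadjusted p = 0.525 and adjusted p = 0.9999 in limma). The interval reaches past a 2-fold difference in both directions. Without PND2 the log2 fold change turned to 0.19.

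Apoe and Lpl stand for lipid handling. Apoe (chr7:19696109-19699188, minus strand) encodes the main apolipoprotein of the brain, which is made by astrocytes as well as microglia, so its level in whole cortex is not that of microglia alone. It stood at 22.9, 24.3 and 38.4 FPKM in the PND samples and at 15.3, 35.1 and 34.5 FPKM in the CON samples. The lowest value was in CON1 and the highest in PND3, and the group means were 28.5 ± 8.57 and 28.3 ± 11.3 FPKM (SD, n = 3 each). Between 640 and 2015 fragments per sample stood behind these values, so counting error was small and the spread was between samples. Apoe had a log2 fold change of 0.068 (SE 0.35, 95% confidence interval -0.75 to 0.89), with unadjusted p = 0.852 in limma. It turned to -0.033 with correction for GC content, to -0.17 without PND3 and to -0.33 without CON1.

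Lpl (chr8:68880491-68907448, plus strand) encodes lipoprotein lipase, which frees fatty acids from lipoproteins and is also expressed by neurons. The PND samples were close together at 2.85, 2.84 and 3.10 FPKM. The CON samples held 3.17, 1.92 and 3.08 FPKM, with CON2 below the other 5 samples. For Lpl it was 0.13 (log2 fold change, SE 0.23, 95% confidence interval -0.40 to 0.66, unadjusted p = 0.577 in limma), and without CON2 it was -0.092.

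Cd68, Ctsb, Ctsd and Cst7 belong to the lysosome, where engulfed material is broken down. Ctsb (chr14:63122462-63145923, plus strand) encodes cathepsin B, a cysteine protease. It stood at 52.1, 46.3 and 57.2 FPKM in PND1 to PND3 and at 36.2, 48.2 and 37.4 FPKM in CON1 to CON3. PND1 and PND3 lay above all CON samples, while PND2 lay below CON2. The means were 51.9 ± 5.42 and 40.6 ± 6.61 FPKM (SD, n = 3 each), a log2 fold change of 0.36 (SE 0.14, 95% confidence interval 0.024 to 0.70). Limma gave an unadjusted p = 0.0391 and an adjusted p = 0.9999. This difference stayed between 0.34 and 0.36 in the 11 other fits that kept all samples, but the p was below 0.05 in 9 of them. It was 0.0941 without the intensity trend of the variance, and it stayed below 0.05 in 2 of the 6 fits that left out a sample, with a range of 0.00617 to 0.125. Ctsb shares 774 exon bases with Fdft1 on the opposite strand, and the use of strand in the authors' counting was not stated. Fdft1, an enzyme of cholesterol synthesis, held 24.8 ± 1.52 FPKM in the PND group and 26.2 ± 0.722 FPKM in the CON group (SD, n = 3 each), a log2 fold change of -0.081.

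Ctsd (chr7:142375911-142388038, minus strand) encodes cathepsin D, an aspartic protease that neurons express too. It stood at 36.0, 21.4 and 41.0 FPKM in the PND samples and at 21.9, 36.3 and 31.0 FPKM in the CON samples. PND2 and CON1 were low together, and PND3 was highest. Its log2 fold change of 0.12 (SE 0.28, 95% confidence interval -0.53 to 0.77, unadjusted p = 0.680 in limma) turned to -0.068 without PND3 and to -0.084 without CON1. Ctsd shares 808 exon bases with Gm49369 on the same strand, a gene for which the deposited data hold no value.

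Cd68 (chr11:69664213-69666153, minus strand) encodes a lysosomal membrane glycoprotein of macrophages and microglia. Its level was 1.42, 1.47 and 1.24 FPKM in PND1 to PND3 and 0.839, 1.07 and 1.28 FPKM in CON1 to CON3. Only CON3 reached into the PND range. Cd68 had a log2 fold change of 0.36 (SE 0.24, 95% confidence interval -0.20 to 0.92), with unadjusted p = 0.175 in limma, on 74 fragments in PND and 50 in CON. Cst7 (chr2:150570415-150578944, plus strand) encodes cystatin F, an inhibitor of lysosomal cysteine proteases that is among the most strongly induced genes of disease-associated microglia. It was read at 2, 0 and 2 fragments in the PND samples and at 1, 0 and 0 fragments in the CON samples. Every sample lay under the floor of 3 fragments, so no fold change is given, and a difference was not detectable at this depth.

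Axl and Spp1 are the receptor and the secreted protein of the set. Axl (chr7:25757273-25788705, minus strand) encodes a receptor tyrosine kinase of the TAM family, which recognises phosphatidylserine on dying cells through bridging ligands. Its level was 2.98, 2.28 and 3.04 FPKM in the PND samples and 2.26, 3.40 and 2.94 FPKM in the CON samples, again lowest in CON1 and PND2. Its log2 fold change of -0.044 (SE 0.22, 95% confidence interval -0.55 to 0.46, unadjusted p = 0.843 in limma) turned to 0.084 without PND2 and also without CON2. Spp1 (chr5:104435118-104441050, plus strand) encodes osteopontin, a secreted ligand of integrins and CD44. It was measured at 1.35, 0.871 and 1.19 FPKM in PND and at 0.745, 0.937 and 1.22 FPKM in CON. CON1 and PND2 were its lowest samples as well. For Spp1 this gave a log2 fold change of 0.22 (SE 0.28, 95% confidence interval -0.44 to 0.88, unadjusted p = 0.464 in limma). Of its exon bases, 309 are shared with Gm42793 on the same strand, which held 0.0921 ± 0.00814 FPKM in the PND group and 0.215 ± 0.118 FPKM in the CON group (SD, n = 3 each).

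The plot of differences with their intervals sets the 9 genes side by side. Only the interval of Ctsb lay to 1 side of 0. The intervals of Lpl, Axl, Cd68, Ctsb, Ctsd, Spp1 and Apoe lay within a 2-fold difference in both directions, and those of Trem2 and Tyrobp reached past a 2-fold decrease.

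**Figure D2:**
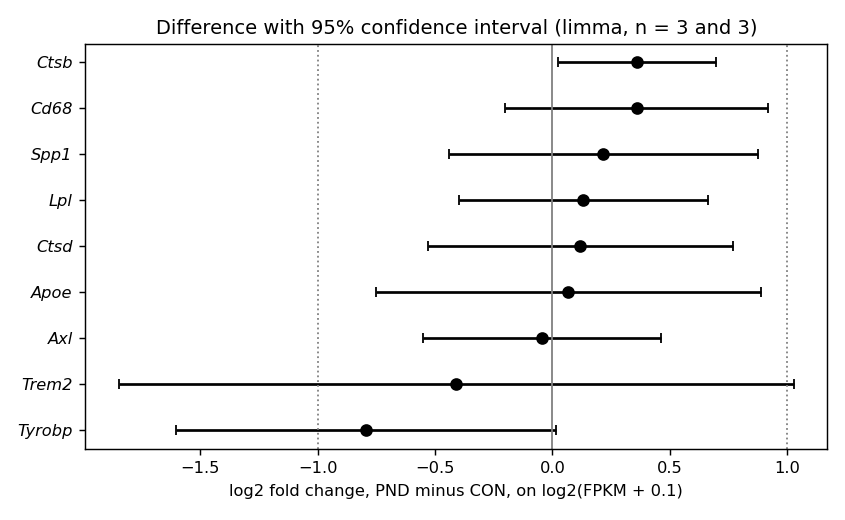
Log2 fold change of PND over CON on the log2(FPKM + 0.1) scale (x axis) for the 9 genes tested, with the 95% confidence interval of limma (n = 3 and 3). The solid line marks 0 and the dotted lines mark 2-fold differences. Ctsb, at 0.36, is the only gene whose interval does not hold 0, and Trem2 has the widest interval, from -1.85 to 1.03.

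The samples in which these genes were low or high did not follow the groups. CON1 was the lowest of the 6 samples for 5 of the 9 genes tested, namely Apoe, Axl, Cd68, Ctsb and Spp1. The lowest pair of samples was CON1 with PND2, 1 sample of each group, for 4 genes. PND3 was highest for 3 genes and CON2 for 3. Genes rich in G and C bases had a similar order of samples across the whole table. Among genes with at least 1 FPKM, the GC-richest decile (1233 genes, median GC content 58.5%) deviated from its gene means by a median of -0.56 in CON1 and -0.30 in PND2 on the log2 scale. The value was -0.03 in CON3, 0.11 in PND1, 0.37 in PND3 and 0.49 in CON2. Apoe, the member with the highest GC content (59.5%), deviated by -0.82 in CON1 and 0.50 in PND3, and Ctsd (55.9%) by -0.47 in CON1 and 0.43 in PND3. Lpl, with 43.5%, went the other way, at 0.18 in CON1 and -0.52 in CON2. Not every gene followed its GC content, since Spp1, the lowest at 43.3%, deviated by -0.42 in CON1 and -0.22 in PND2, and Tyrobp (54.8%) by 0.10 in CON1 and by -1.06 in PND1, its lowest sample. Trem2, at 51.0%, deviated by more than these genes, with -1.40 in PND2 and 0.998 in CON2. The part of GC content in each gene's spread was not tested. Under a correction for GC content the log2 fold change of Ctsd was 0.042 in place of 0.12 and that of Axl -0.11 in place of -0.044, and those of Tyrobp and Apoe are given above.

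**Figure D3:**
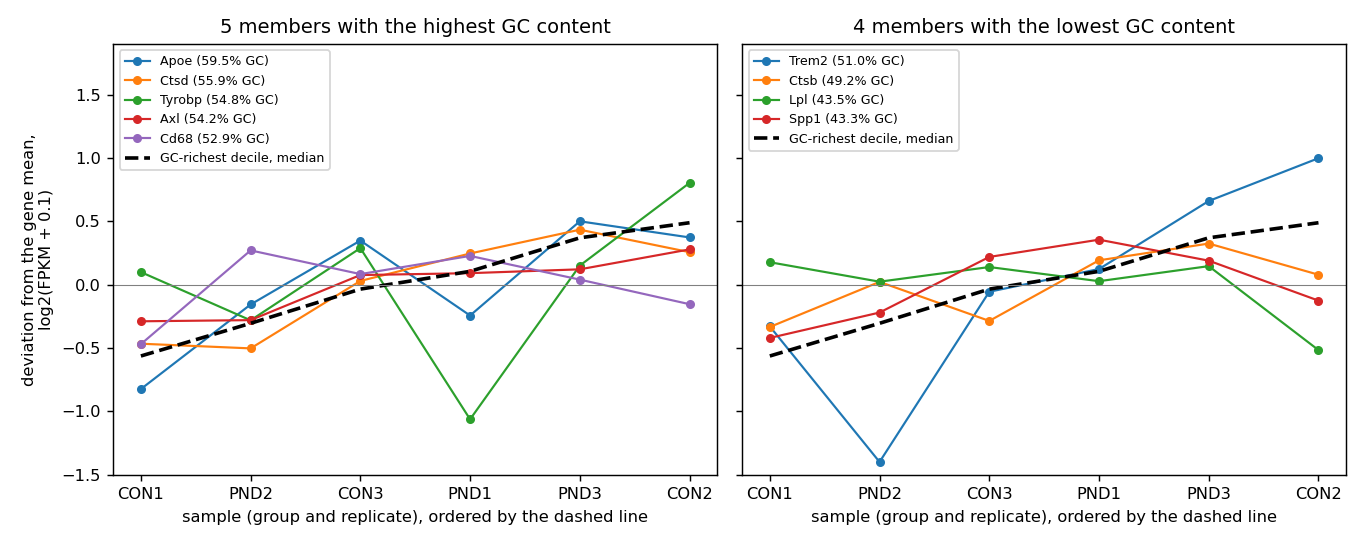
Deviation of each gene from its own mean over the 6 samples on the log2(FPKM + 0.1) scale (y axis), with samples ordered along the x axis by the median deviation of the GC-richest decile of genes (dashed line). Left are the 5 genes with the highest GC content and right the 4 with the lowest. The order mixes PND and CON samples, the dashed line climbs from -0.56 in CON1 to 0.49 in CON2, and Trem2 falls to -1.40 in PND2.

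Over the 6 samples, Axl and Ctsd had the highest correlation of any pair of the 9 genes (Pearson's r = 0.92), followed by Trem2 with Axl (0.88) and Trem2 with Ctsd (0.86), while Lpl and Axl had the lowest (-0.57). Trem2 and its partner Tyrobp correlated at 0.42. Among 12387 genes with at least 1 FPKM, those whose pattern was most like that of Trem2 were Plcb3 (r = 0.995), Dhrs4 (0.989) and Ctnnd1 (0.989), and 105 genes had an r above 0.95. These values describe 6 libraries that share the order with GC content given above.

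Levels can be compared between genes only per length, and the deposited FPKM turned out to divide by a length in which overlapping exons of different transcripts are counted more than once for many genes. The levels were therefore recomputed from the recovered fragments per kilobase of merged exons, over the 6 samples. Apoe then came first at 74.3 ± 23.5, followed by Ctsd at 51.5 ± 13.3 and Ctsb at 36.2 ± 6.43 FPKM on this scale (SD, n = 6). On the deposited scale Ctsb came first of the 3 at 46.2 ± 8.21 FPKM and Apoe last at 28.4 ± 8.97 FPKM. The length behind the deposited values of Apoe, Ctsd, Ctsb, Lpl and Tyrobp was not the sum of their distinct exons. For Ctsb, Lpl and Tyrobp it was shorter than the merged exons (0.78, 0.73 and 0.85 of their length). The exons counted for these genes may differ from those merged here, which leaves their order less sure. The ranges of Apoe and Ctsd overlapped on the recomputed scale, as did those of Ctsd and Ctsb. A gap then separated Ctsb, lowest at 28.3, from Axl, highest at 5.78. Below it came Axl at 4.78 ± 0.771, Spp1 at 3.43 ± 0.762, Lpl at 2.07 ± 0.340, Tyrobp at 2.01 ± 0.821 and Cd68 at 2.00 ± 0.385 (SD, n = 6). Of these neighbours only Spp1 and Lpl did not overlap in range. Trem2, at 0.552 ± 0.343, reached 1.07 in its highest sample and stayed below every sample of Cd68, and Cst7, at 0.0968 ± 0.111, was the lowest.

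**Figure D4:**
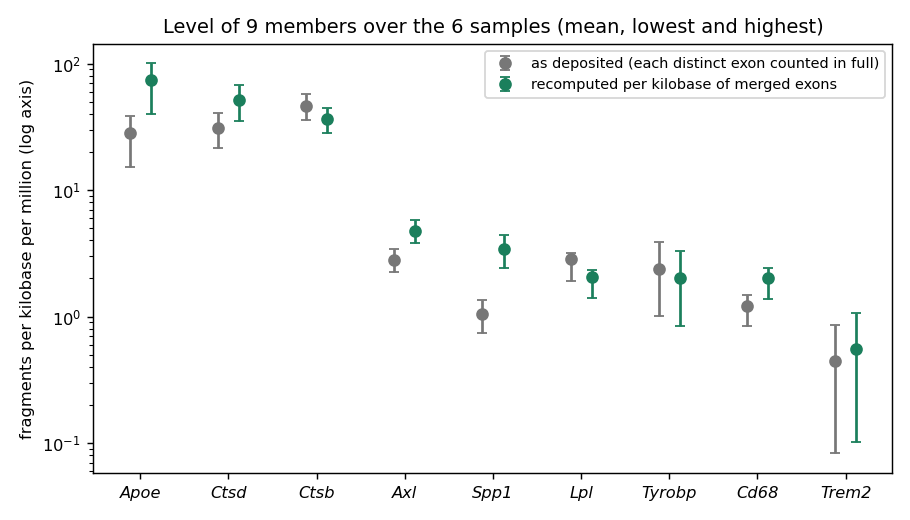
Level over the 6 samples of 9 of the 10 genes (Cst7 is left out), in FPKM on a log axis. Points are means and bars run from the lowest to the highest sample, grey for the deposited values and green for values recomputed per kilobase of merged exons. The deposited length was not the sum of distinct exons for Apoe, Ctsd, Ctsb, Lpl and Tyrobp. Apoe, Ctsd and Ctsb lie above the other genes on both scales, Spp1 moves most, by 3.26-fold, and Trem2 is lowest on both.

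Genes that work with the 10 were read from companion lists, by their counts, which stand against the 3.13% of all genes with an unadjusted p below 0.05. Beyond the 10, a further 20 disease-associated microglia genes were listed, of which 19 were in the files and 15 were tested. None of these had an unadjusted p below 0.05 in either direction, and the median log2 fold change was -0.08. Their values ran from -0.37 for Ccl6 to 0.71 for Ccl3, both chemokines, and the Ccl3 value rests on 0 to 3 fragments per sample. Itgax, the integrin CD11c, was under the level for testing, with 0 to 8 fragments per sample, as were Lgals3, Cd52 and Ch25h.

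Of the signalling partners and processing enzymes around TREM2 and TYROBP, 19 were tested, among them Syk, Plcg2 and the ectodomain protease Adam10. In this list too 0 genes had a p below 0.05, with a median of 0.10 and a range from -0.55 for Ptpn6, a phosphatase that dampens ITAM signals, to 0.57 for Card9, an adaptor read at 0 to 7 fragments. Syk, the kinase that docks on the printed motif, stood at 0.273, 0.278 and 0.312 FPKM in the PND samples and at 0.225, 0.458 and 0.306 FPKM in the CON samples (log2 fold change -0.11).

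For the 20 lipid handling genes tested the median log2 fold change was 0.03, and the values ran from -0.54 for Fabp7, a fatty acid binding protein of glia, to 0.68 for Angptl4, an inhibitor of lipoprotein lipase. Of 26 lysosomal genes, 1 had an unadjusted p below 0.05, near the 3.13% of all genes. This was Tpp1, the tripeptidyl peptidase whose loss causes a childhood lysosomal storage disease. It stood at 15.1, 13.2 and 16.3 FPKM in PND against 11.6, 11.3 and 11.7 FPKM in CON, without overlap (log2 fold change 0.35, unadjusted p = 0.0204, adjusted p = 0.9999 in limma). Its unadjusted p was 0.0529 without the intensity trend, 0.0650 without PND1 and 0.0711 without PND3. Groups without overlap were found for 2 of the 26 lysosomal genes, against 7.66% of all genes. The other was Ctsc, which was lower in each PND sample (log2 fold change -0.24). The median of the lysosomal list was 0.05, and the lowest value was -0.43 for Ctsk.

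Among 8 genes of the TAM receptors, their ligands and related engulfment receptors, Mertk had a p below 0.05. Mertk is a sister receptor of Axl, made by astrocytes as well as microglia. Its level was 13.1, 15.2 and 16.0 FPKM in PND and 10.9, 11.8 and 10.6 FPKM in CON, without overlap (log2 fold change 0.40, unadjusted p = 0.0135, adjusted p = 0.9999 in limma). The median of this list was -0.03, with Mfge8 lowest at -0.36. Of the 10 osteopontin receptors, CD44 and integrin subunits, 0 had a p below 0.05. Their median was -0.11, and they ran from -0.44 for Cd44 to 0.57 for Itga5.

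Of the 20 homeostatic microglia markers, 1 had an unadjusted p below 0.05, against 3.13% of all genes, and 2 had groups without overlap, against 7.66%. The first was P2ry12, the purinergic receptor with which resting microglia sense ATP and ADP. It stood at 4.61, 7.06 and 4.79 FPKM in PND and at 10.7, 9.47 and 7.68 FPKM in CON, so that each PND sample lay below each CON sample. P2ry12 thus had a log2 fold change of -0.76 (SE 0.21), with unadjusted p = 0.00767 and adjusted p = 0.9999 in limma. The list went both ways, with 11 genes higher, 9 lower and a median of 0.036. Next to P2ry12 the lowest were Hpgds at -0.62 and Siglech at -0.58, and Olfml3, at -0.23, was the other marker with each PND sample below each CON sample. The highest value was 0.59 for the complement gene C1qa, and the list summed to 54.1 to 68.6 FPKM in PND and 54.0 to 74.2 FPKM in CON.

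Other cell types express some of the 10 genes, and their markers were read beside them. The 10 perivascular macrophage markers summed to 2.84 to 3.73 FPKM in PND and 2.32 to 2.64 FPKM in CON, without overlap. Of these 5 were tested, 0 had a p below 0.05, their median was 0.42, and Pf4 was listed at 0 in all samples but PND3. Mrc1, with the highest mean FPKM of this list, had a log2 fold change of 0.066. How often the sum of such a list separates the groups was not worked out, for this list or the next, so no change of a cell type is read from these sums. The 10 endothelial markers summed to 41.5 to 52.6 FPKM in PND and 37.0 to 40.9 FPKM in CON, also without overlap, with Ly6c1 alone at a p below 0.05 (log2 fold change 0.79, unadjusted p = 0.00568, adjusted p = 0.9999 in limma). Of these 10 genes 6 were higher and 4 lower, with a median of 0.21, and Tek, at -0.38, was lower in each PND sample than in each CON sample. Of the 4 with the highest deposited FPKM, Slco1a4, Abcb1a and Ly6c1 had higher means in PND, and Flt1 had a log2 fold change of -0.051. Of the 9 members tested, 6 had higher means in PND and 3 had lower ones, namely Tyrobp (-0.79), Trem2 (-0.41) and Axl (-0.044). The part of either cell type in these values was not tested. Of the 10 blood monocyte and neutrophil markers 4 were in the files. Ccr2 had 0 to 7 fragments per sample, S100a8 0 to 2 and Itgal 0 to 12, and only Fn1 was tested, with a log2 fold change of 0.19.

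Of the 10 astrocyte markers, Gfap was higher (log2 fold change 0.66, unadjusted p = 0.00294 in limma) and the water channel Aqp4 lower (-0.36, unadjusted p = 0.0275), both with an adjusted p of 0.9999, and the list summed to 366 to 497 FPKM in PND and 317 to 619 FPKM in CON. Of the 10 oligodendrocyte markers, Opalin was lower (-0.78, unadjusted p = 0.0291, adjusted p = 0.9999 in limma), with an unadjusted p below 0.05 in 2 of the 6 fits that left out a sample, and the sums were 273 to 354 and 321 to 353 FPKM. None of the 10 fibroblast and mural markers or of the 10 neuron markers had a p below 0.05, with medians of -0.04 and 0.03. The plot by list shows all these genes on 1 axis.

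**Figure D5:**
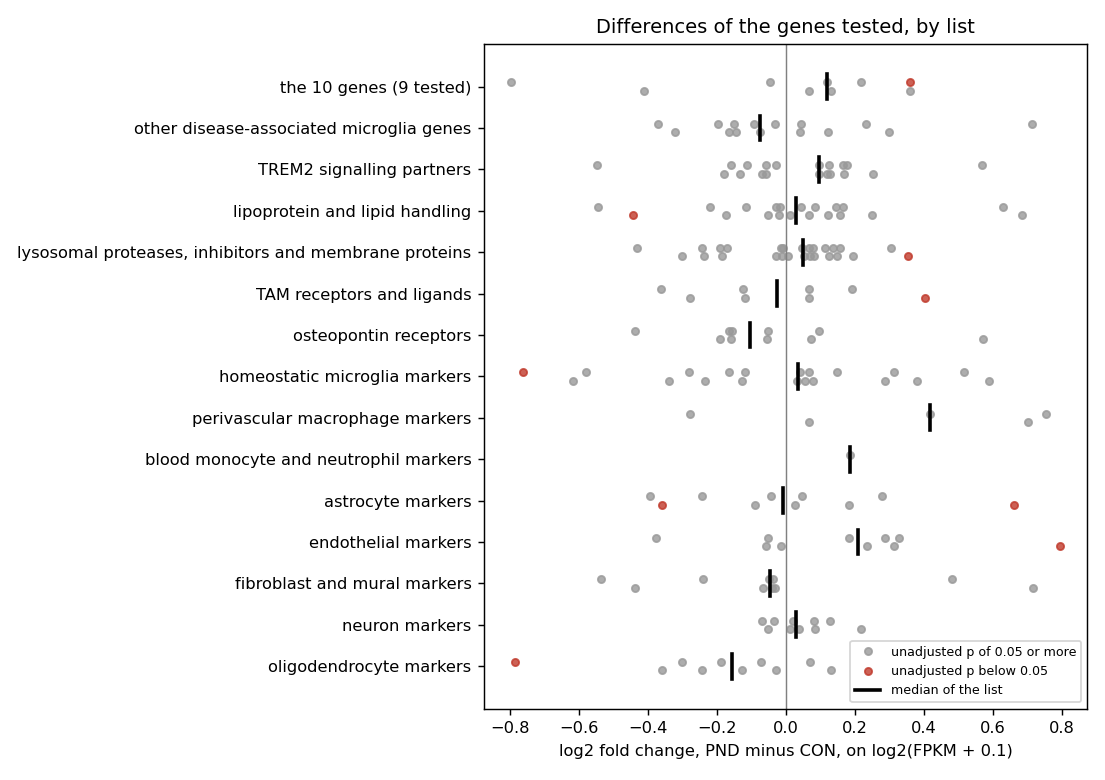
Log2 fold change of PND over CON on the log2(FPKM + 0.1) scale (x axis) for each gene tested, with 1 row per list. Red points have an unadjusted p below 0.05 in limma, grey points do not, and black bars are list medians. The medians of the microglial and lysosomal lists lie between -0.08 and 0.12, and no row holds more than 1 red point except the astrocyte markers, with 2.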

How the data were processed

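Libraries of 6 prefrontal cortex samples were rRNA-depleted, sequenced on an Illumina instrument, filtered with Seqtk and aligned with Hisat2 by the authors, who counted fragments with StringTie and, by their methods, scaled them by TMM. The deposited values are FPKM per gene; the genome build, annotation and strand use were not given in the sources used here. The submitters' processing notes also name Bowtie 0.12.2, mm8 and mm9 with no role.

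For 72.4% of genes, FPKM times the summed length of all distinct exons (GENCODE M21, GRCm38) times 1 depth per sample was a whole number in all 6 samples, and for 27.5% another length was found. Recovered fragments summed to 1.004 to 1.005 times the depth in every sample, so no factor between samples is visible in the values. Genes were tested in limma 3.58.1 under R 4.3.3 (lmFit, eBayes with an intensity trend) with no covariate, a pseudocount of 0.1 FPKM, a mean of at least 0.1 FPKM and Benjamini-Hochberg adjustment. The pseudocount understates changes of low genes. GC content is that of the longest transcript, and coordinates are those of GENCODE.

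Alternatives were pseudocounts of 0.01 and 1, no filter and a filter at 1 FPKM, quantile normalization, median centring, no intensity trend, a replicate block, a GC correction with and without that block, voom on recovered fragments, and leaving out each sample. All 10 genes are named whatever their values. From each companion list the genes named are those with the smallest unadjusted p below 0.05, up to 5, and its lowest and highest where a range is given, and any other gene named was chosen after its values were seen. The genes and lists were chosen with earlier results of these data known. The result of 1 gene of the lipid handling list is not reported here.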

Additional observations from a re-analysis of the deposited data

How the results depend on the processing

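The number of the 10 genes with an unadjusted p below 0.05, 1 as reported, was 2 (Ctsb and Tyrobp) with quantile normalization and with the GC correction, 0 without the intensity trend, and 0 to 1 when a sample was left out. The number past the study's cut-off was 0 in the 11 other fits that kept all samples and 0 to 1 when a sample was left out, the 1 being Tyrobp without PND3. No adjusted p was below 0.05 in any fit, and the smallest was 0.826. The median log2 fold change lay between 0.042 and 0.13 in the fits with all samples and between -0.084 and 0.24 when a sample was left out. Apoe reversed to -0.033 with the GC correction. When a sample was left out, the direction changed for Trem2 (-0.84 to 0.19), Apoe (-0.33 to 0.27), Lpl (-0.092 to 0.25), Axl (-0.20 to 0.084) and Ctsd (-0.084 to 0.40), and it held for Tyrobp, Cd68, Ctsb and Spp1. The causes were not tested. Among the genes of the companion lists, P2ry12, Mertk, Gfap and Ly6c1 kept an unadjusted p below 0.05 in all 11 other fits and all 6 that left out a sample. Among those above 0.05 in some of these fits were Tpp1, Aqp4 and Opalin, whose p was below 0.05 in 4, 3 and 2 of the 6 fits that left out a sample. Without the intensity trend Tpp1 was at 0.0529 and Aqp4 at 0.0735. Counts of such genes per companion list also moved, among them those of the homeostatic markers (1 as reported, 3 without PND2, 4 without CON2), the other disease-associated microglia genes (0 as reported, 3 without CON1), the endothelial markers (1 as reported, 3 with the GC correction) and the oligodendrocyte markers (1 as reported, 0 to 3 when a sample was left out). The share of all genes with an unadjusted p below 0.05 moved too, from 3.13% as reported to 3.26% without PND2, 4.63% without CON1, 5.36% without CON2 and 4.36% with the GC correction. This share was 3.19% with quantile normalization and 3.62% without the intensity trend, and it ran from 2.24% to 5.36% when a sample was left out.

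The groups share the replicate numbers 1 to 3, and same-numbered samples did not deviate together (correlations of -0.049, -0.45 and 0.027). Such correlations cannot show whether the animals were paired in the experiment, so both fits are given. With the replicate block 1 of the 10 genes had a p below 0.05, Tyrobp (unadjusted p = 0.0407 in limma) in place of Ctsb (unadjusted p = 0.0878), against 1.99% of all genes. With the GC correction and the replicate block together it was 2, Ctsb and Tyrobp, against 3.52%, and Apoe was again at -0.033. The block also took Tpp1 (0.0507) and Opalin (0.0636, and 0.0592 with the GC correction) above 0.05.

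Fragments were few for Cst7 (at most 2 per sample), Tyrobp (5 to 18), Cd68 (13 to 26) and Trem2 (4 to 43), although the range of Trem2 was wider than counting error. Apoe, Ctsb and Ctsd held at least 637 fragments in every sample and are limited by the spread between the 3 samples of a group. The parts of animal and library in that spread cannot be told apart.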

Other observations

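Itgam, the integrin subunit CD11b of microglia and other myeloid cells, was picked out once its values were known. PND2 held 154 fragments of Itgam (2.70 FPKM), while the other 5 samples held 0.173 to 0.783 FPKM. The same sample had the lowest Trem2, at 4 fragments.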
